A study of Mus musculus with 14 samples.

Results

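The constitutive proteasome subunit genes are the protein-coding mouse genes whose official symbol starts with Psma, Psmb, Psmc or Psmd followed by a digit, without the immunoproteasome genes Psmb8, Psmb9 and Psmb10. This rule uses names only and found 37 of the 27179 genes counted. They comprised 14 genes of the core particle (7 of the alpha ring and 7 of the beta ring), 17 genes of the regulatory particle (6 of its ATPase ring, 3 other base genes and 8 lid genes) and 3 genes for assembly chaperones of the base. The other 3 were Psma8 and Psmb11, core genes known from testis and thymus, and Psmc3ip, a meiotic recombination cofactor that shares the prefix without being a subunit. The study sequenced polyA RNA of regulatory T cells, the Foxp3-expressing T cells that restrain immune responses, taken from mice on a B6 background at the endpoint of an MC38 flank tumor, MC38 being a mouse colon carcinoma line. Cells were sorted on a YFP reporter expressed with Cre recombinase from Foxp3, which all groups carried, so recombination was directed to Foxp3-expressing cells. Libraries labelled WT had the unmodified IL-23 receptor locus and libraries labelled Flox had loxP-flanked alleles. There were 4 libraries of spleen WT, 3 of spleen Flox, 4 of tumor-infiltrating (TIL) WT and 3 of TIL Flox cells.

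The proteasome degrades proteins tagged with ubiquitin. Its core particle is a barrel of alpha rings, which gate the entry, around beta rings, which hold the proteolytic sites, and the regulatory particle caps the barrel, binds ubiquitin and unfolds the substrate with its ATPases. Cells that lose proteasome activity are known to raise most subunit genes together through the transcription factor encoded by Nfe2l1, and dividing and activated T cells depend on the complex.

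The libraries held 4859099 to 10333892 counts. Levels are given as counts scaled to library size (CPM) with the TMM scaling of edgeR, and levels of different genes are compared only as CPM per kilobase of transcript. Regulatory T cell markers were present in every library, and the summed level of Cd3e, Cd4, Foxp3, Il2ra, Ctla4 and Ikzf2 was 2335 to 3931 CPM in spleen and 4433 to 8619 CPM in tumor. Il23r itself had 10 counts in all in spleen Flox (0 to 9 a library) and 17 in TIL Flox (4 to 7), against 2 in spleen WT and 2 in TIL WT (0 to 2 a library in both). The targeted gene was therefore not lower in the libraries labelled Flox, and no source states whether the counted reads fall in the deleted exons. All Flox libraries had Y-linked reads with little Xist, whereas WT libraries had Xist, and both WT 2 libraries had Ddx3y as well, at 30.0 CPM in spleen and 127 CPM in tumor. Genotype label and sex of the animals cannot be told apart. The labels do not tie libraries to separate animals, so the spread behind each p-value may be technical.

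Of the core particle, alpha ring genes lay between Psma5 and Psma7, at a mean of 7.75 and 39.1 CPM per kilobase over the 14 libraries. The beta ring gene of lowest mean level was Psmb5, which encodes the chymotrypsin-like site, at 7.36 CPM per kilobase. Psmb6, which encodes the caspase-like site, had the highest mean, 78.0 CPM per kilobase, but a median of 15.4. Psmb7, which encodes the trypsin-like site, had a mean of 9.28 and a median of 9.16 CPM per kilobase. By the median the 3 proteolytic genes lay closer together than by the mean, since Psmb6 was very high in a few libraries.

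Psmb5 was low in every library, between 4.04 and 10.7 CPM, with means of 6.04 ± 1.43 CPM in spleen WT (SD, n = 4), 5.18 ± 1.41 in spleen Flox (n = 3), 7.17 ± 2.57 in TIL WT (n = 4) and 8.06 ± 0.398 in TIL Flox (n = 3). Psmb6 had 183 CPM in spleen WT 1, 13.3 in spleen WT 2, 12 in spleen WT 3 and 234 in spleen WT 4. In spleen Flox it had 69.0, 12.3 and 11.3 CPM in replicates 1, 2 and 3. In tumor, TIL WT 1 to 4 had 10.1, 15.9, 11.8 and 8.96 CPM, and TIL Flox 1 to 3 had 267, 12.3 and 10.6 CPM. In all, 4 libraries from 3 of the groups therefore carried several times the Psmb6 level of the remaining libraries, which stayed within a narrow band.

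Promoters of 30 of the 37 genes were found in a RefSeq table for build GRCm38.p6, each spanning 250 bases before to 50 after the start site, with 32 promoters in all. Psmb1, Psmb2, Psmb7, Psmd3, Psmd7, Psmc3 and Psma8 had no entry and could not be searched. The sequence CCGGAA, a core of ETS family binding sites, occurred on either strand in 17 of these 32 promoters (53.1%), against 14.9% of all 32851 promoters in the table. GGGCGG, the GC box, occurred in 56.2% against 35.7%. TGACNNNGC, the core of the antioxidant response element that Nfe2l1 and Nfe2l2 proteins bind, occurred in 15.6% against 12.4%, in Psmb5, Psmb6, Psmc6, Psmd12 and Psmd9. CCAAT occurred in 40.6% against 37.4% and ACTACA in 9.38% against 10.3%. Each motif was searched on both strands, and a match describes letters only. Among these motifs CCGGAA had the largest gap to the share over all promoters. The promoters below are those of both proteolytic genes with the antioxidant core, Psmb5 and Psmb6, which differed in how even their levels were, and of Psmc6 and Psma5, which carry CCGGAA and come up again with the tissue comparison. They were picked after their levels had been seen. Capitals mark matches to TGACNNNGC or CCGGAA, or to their reverse complement, and none of these matches overlap. The sequences lie at chr14:54617946-54618245 on the minus strand (Psmb5), chr11:70525107-70525406 on the plus strand (Psmb6), chr14:45329574-45329873 on the plus strand (Psmc6) and chr3:108256676-108256975 on the plus strand (Psma5).
Psmb5: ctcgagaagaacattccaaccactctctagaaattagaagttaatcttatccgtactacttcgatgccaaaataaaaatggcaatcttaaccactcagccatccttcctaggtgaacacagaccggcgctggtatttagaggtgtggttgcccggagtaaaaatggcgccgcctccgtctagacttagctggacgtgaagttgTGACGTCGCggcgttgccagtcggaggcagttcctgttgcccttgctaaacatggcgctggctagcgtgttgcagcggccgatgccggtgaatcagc
Psmb6: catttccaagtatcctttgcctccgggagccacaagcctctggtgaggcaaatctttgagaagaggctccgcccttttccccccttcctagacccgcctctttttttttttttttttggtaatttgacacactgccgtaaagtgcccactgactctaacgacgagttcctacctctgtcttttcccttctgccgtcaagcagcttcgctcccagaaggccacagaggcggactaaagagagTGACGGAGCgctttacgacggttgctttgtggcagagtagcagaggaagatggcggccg
Psmc6: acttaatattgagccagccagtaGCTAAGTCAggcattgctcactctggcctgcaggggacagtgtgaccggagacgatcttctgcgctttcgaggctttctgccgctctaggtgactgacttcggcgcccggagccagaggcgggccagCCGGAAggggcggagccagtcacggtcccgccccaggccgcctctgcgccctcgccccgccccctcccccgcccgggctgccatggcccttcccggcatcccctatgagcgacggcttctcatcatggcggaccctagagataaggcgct
Psma5: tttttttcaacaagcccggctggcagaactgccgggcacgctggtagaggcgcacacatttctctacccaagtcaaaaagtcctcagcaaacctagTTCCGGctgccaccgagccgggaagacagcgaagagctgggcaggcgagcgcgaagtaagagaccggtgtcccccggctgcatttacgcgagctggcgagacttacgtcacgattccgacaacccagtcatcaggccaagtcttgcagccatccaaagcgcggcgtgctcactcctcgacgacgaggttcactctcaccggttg
Counted from the start sites used for these promoters, the antioxidant core began 47 bases before the start in Psmb5 and 9 bases before it in Psmb6. The annotated Psmb6 gene begins further upstream, at base 70525324, so the core lies inside that gene span. In Psmc6 the antioxidant core lay on the opposite strand, its leftmost base 227 bases before the start, and CCGGAA lay 100 bases before it. In Psma5 the reverse complement of CCGGAA lay 154 bases before the start. Psmb5 and Psmb6 thus shared the antioxidant core close to these start sites. Its share in subunit promoters was near that over all promoters (15.6% against 12.4%), and a link between the match and levels was not tested.

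Of the regulatory particle, the ATPase ring ran from Psmc6 at a mean of 5.81 CPM per kilobase to Psmc1 at 26.3. Psmd2, a large scaffold of the base, had the highest mean of the other base genes at 54.8 CPM per kilobase, and Psmd1, its partner scaffold, the lowest at 10.9. Psmd4, which encodes a ubiquitin receptor, had a mean of 19.9. In the lid, Psmd14, the deubiquitinase that removes ubiquitin chains from substrates, had 55.8 CPM per kilobase and Psmd7, its structural partner, had 8.50. The chaperone genes were the lowest group, from Psmd9 at 3.06 to Psmd10 at 4.91 CPM per kilobase. Psmc3ip had 1.27 CPM per kilobase, Psmb11 a single count in 1 library, and Psma8 no count in any library. With 0 counts, counting error alone allows up to 3 counts in a library.

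**Figure D1:**
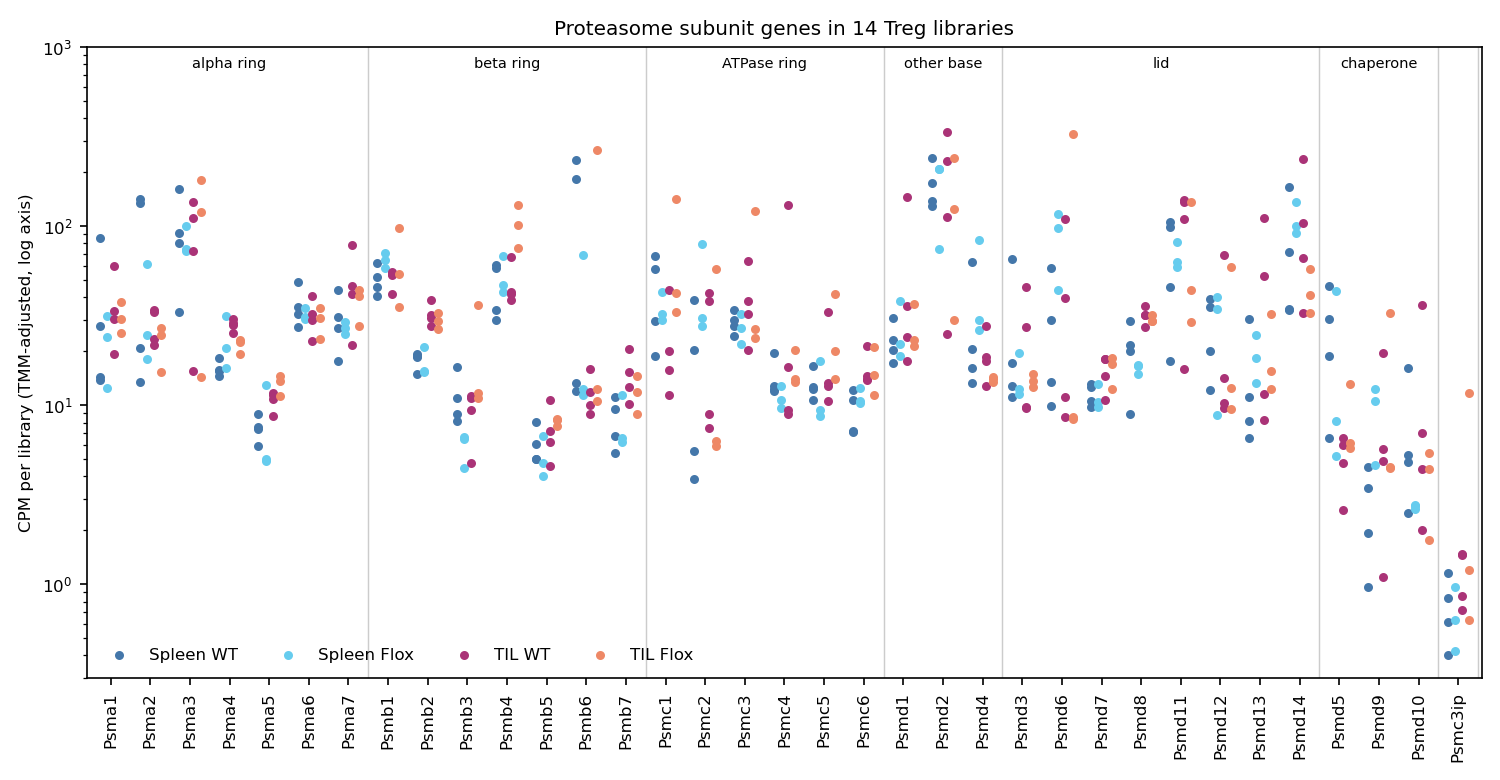
Level of each tested gene in each of the 14 libraries, in CPM on a log axis, grouped by sub-complex; each point is 1 library and colors mark the 4 groups. Psmb2, Psmb5 and Psmd7 form tight columns, whereas Psmc4 has a single point far above the rest, 131 CPM in TIL WT 4, and Psmb6 has 4 high libraries, up to 267 CPM in TIL Flox 1.

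Single libraries far above the others were common among these genes. Psmc4, an ATPase, had 131 CPM in TIL WT 4 and 8.96 to 20.4 CPM in the other 13 libraries. Psmd6, a lid subunit, had 327 CPM in TIL Flox 3 and 8.37 CPM in TIL Flox 2. Psmd1 had 146 CPM in TIL WT 1 and 17.2 to 38.3 CPM elsewhere. In 15 of the 35 tested genes (42.9%) the highest library reached at least 4 times the median of the 14 libraries, against 54.8% of all genes tested, a measure chosen after the values had been seen. The genes with such libraries belonged to every sub-complex. The libraries that stood out differed from gene to gene: TIL Flox 1 for Psmb6 and Psmc3, TIL Flox 2 for Psmc1, TIL Flox 3 for Psmd6 and Psmd9, TIL WT 4 for Psmc4 and Psmd12.

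The spread between libraries was summarised by edgeR's biological coefficient of variation from the tissue fit over all 14 libraries, with genotype as a covariate. A genotype difference that varied between tissues thus counted as spread. The coefficient had a median of 0.667 over the 35 genes and 0.735 over all genes tested. It was lowest for Psmd7 at 0.420 and highest for Psmb6 at 1.23. The median Spearman rho between levels of different subunit genes was 0.02 over 595 gene pairs and 14 libraries, against 0.007 over pairs of all genes tested. It was 0.05 for pairs within the core and -0.03 for pairs within the regulatory particle. After centring each gene within its group, the median over the 595 pairs was -0.02. Among the 12 genes of lowest coefficient of variation the median rho was 0.22 over 66 pairs, with 72.7% of pairs above 0, and 0.02 after centring within groups. These correlations share libraries and depth and are given as a description.

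In tumor, no subunit gene passed the test between libraries labelled Flox and WT (0 of 35 at an adjusted p under 0.05 by edgeR's quasi-likelihood test, with 0% of 10777 genes). At an unadjusted p under 0.05 there was 1 of the 35, against 8.08% of all genes, and DESeq2 called 0 of the 35 and 266 of all genes (2.47%). The median log2 fold change, Flox minus WT, was 0.04 over the core and -0.07 over the regulatory particle, against -0.06 over all genes. Psmb6 had the smallest p, with a log2 fold change of 3.05 (95% limits 0.30 to 5.80, adjusted p = 0.584). Without TIL Flox 1, the library at 267 CPM, it was -0.02. Psmc1, an ATPase, had a log2 fold change of 1.64 (limits -0.16 to 3.45), with 141 CPM in TIL Flox 2 and 11.4 to 44.2 CPM in the other tumor libraries. Psmb4, a beta subunit without a proteolytic site, had 75.0, 131 and 101 CPM in TIL Flox 1 to 3 and 66.9, 42.9, 41.8 and 38.7 CPM in TIL WT 1 to 4. Its groups did not overlap, and the log2 fold change was 1.10 (limits -0.14 to 2.34, adjusted p = 0.584 by edgeR). Groups that did not overlap were seen for 2 of the 35 genes, against 5.2% of all genes. Psmc3ip had a log2 fold change of 1.99 that came from 11.6 CPM in TIL Flox 3, and -0.28 without that library.

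The remaining proteolytic and ubiquitin-handling genes had no passing difference in tumor either, with limits that leave room for changes in both directions. The log2 fold change was 0.16 for Psmb5 (95% limits -0.75 to 1.07) and -0.32 for Psmb7 (limits -1.31 to 0.67). It was -0.46 for Psmd4 (limits -1.48 to 0.55) and -1.33 for Psmd14 (limits -3.16 to 0.51).

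In spleen, likewise, 0 of 34 subunit genes passed between Flox and WT (0% of 10935 genes by edgeR). At an unadjusted p under 0.05 there were 2 of the 34, against 6.86% of all genes, and DESeq2 called 0 of the 34 and 124 of all genes (1.13%). The median log2 fold change was -0.16 over the core and -0.0042 over the regulatory particle, against -0.06 over all genes. Psmd9, a base assembly chaperone, had 10.5, 12.4 and 4.66 CPM in spleen Flox 1 to 3 and 3.45, 4.49, 1.94 and 0.966 CPM in spleen WT 1 to 4. Every Flox value was above every WT value, with a log2 fold change of 1.74 (limits 0.33 to 3.14, adjusted p = 0.674 by edgeR). Psmd6 had 44.2, 98.2 and 117 CPM in Flox against 58.1, 13.5, 29.7 and 9.85 CPM in WT, and these groups overlapped (log2 fold change 1.63, limits 0.01 to 3.24). Psmd10, another base chaperone, had a log2 fold change of -1.42 (limits -2.96 to 0.12), with 16.2 CPM in spleen WT 3. Psmb3, a structural beta subunit, had 4.43, 6.44 and 6.68 CPM in Flox and 8.15, 11, 16.3 and 8.89 CPM in WT, without overlap (log2 fold change -0.93, limits -1.97 to 0.11). Groups that did not overlap were seen for 2 of the 34 genes, against 5.97% of all genes.

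**Figure D2:**
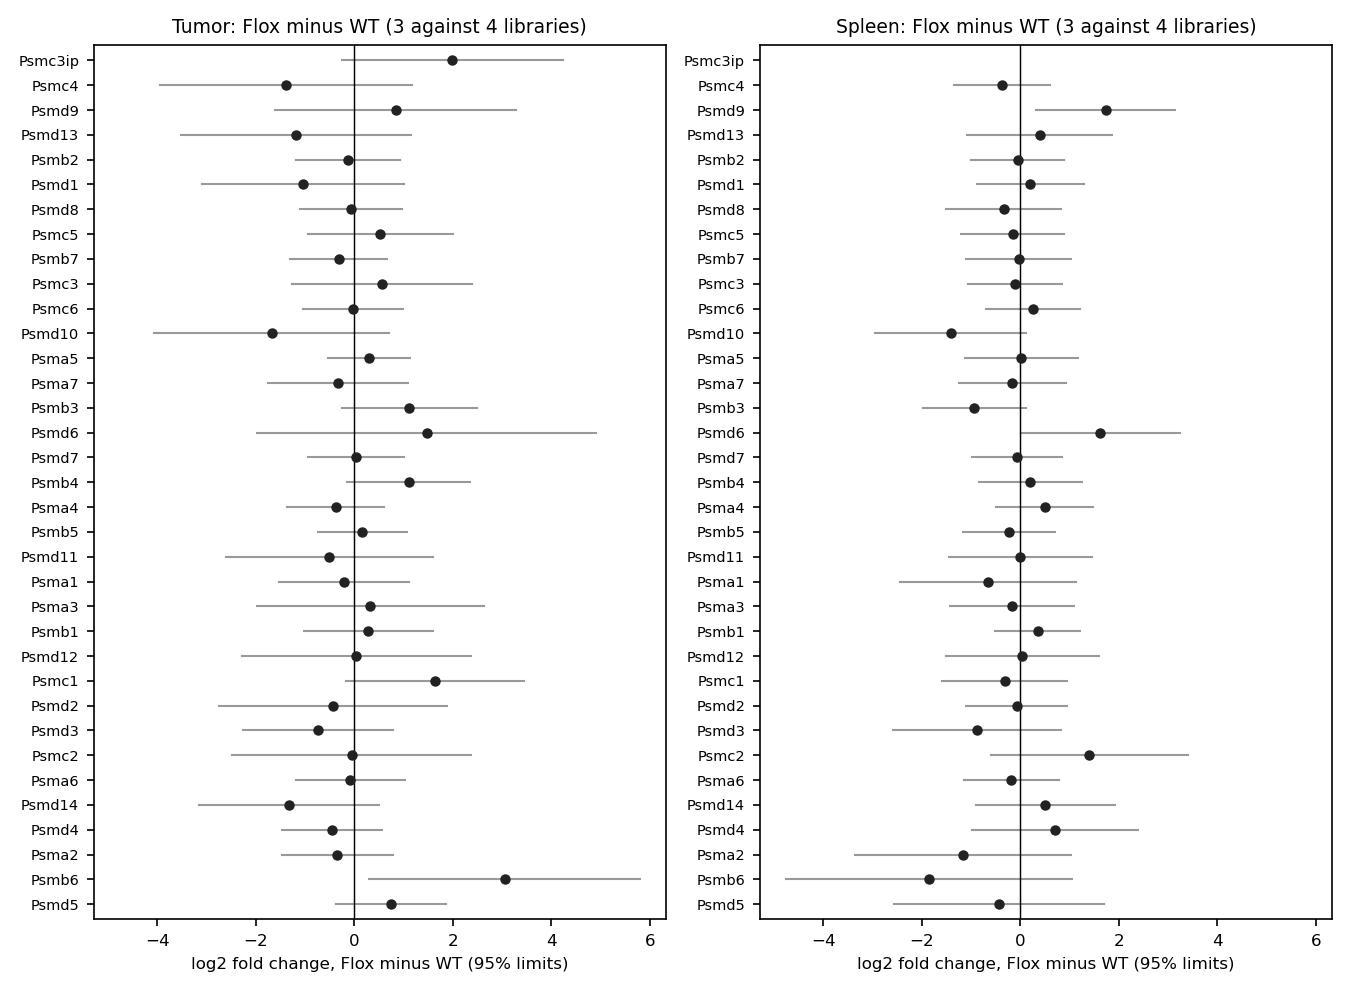
Log2 fold change, Flox minus WT, of each tested gene in tumor (left) and spleen (right); points are edgeR estimates and lines their 95% limits, from 3 against 4 libraries. No gene passed the test in either tissue, and the widest limits are those of Psmd6 in tumor (-1.98 to 4.92) and Psmb6 in spleen (-4.77 to 1.06); Psmc3ip was not tested in spleen.

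The proteolytic genes in spleen had a log2 fold change of -0.24 for Psmb5, -1.86 for Psmb6 (limits -4.77 to 1.06) and -0.04 for Psmb7. Psmb6 thus had estimates of opposite sign in the tissues, with its high libraries in TIL Flox, spleen WT and spleen Flox. Whether the genotype difference itself differed between tissues was tested over all 14 libraries, where 0 of 35 genes passed (0% of 12008 genes by edgeR). At an unadjusted p under 0.05 there were 2 of the 35 genes, Psmb3 and Psmb6, against 10.8% of all genes, and DESeq2 called 157 of all genes. Neither Psmb3 nor Psmb6 was among those (adjusted p = 0.122 and 0.0916 by DESeq2). The difference, tumor minus spleen, was 2.07 for Psmb3 and 4.94 for Psmb6 (adjusted p = 0.425 for both by edgeR), 1.94 for Psmc1 and -1.79 for Psmd14. Single libraries carried much of these values: without TIL Flox 3 Psmb3 had 1.24, without TIL Flox 1 Psmb6 had 1.85, without TIL Flox 2 Psmc1 had 1.04 and without TIL WT 3 Psmd14 had -1.13. The 95% limits of nearly all these genotype estimates reach past a doubling in at least 1 direction, so a missed threshold leaves room for a doubling, and for genes with wide limits for larger changes.

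Between tissues, most estimates for the subunit genes were above 0, toward tumor regulatory T cells, but few genes passed. The median log2 fold change, tumor minus spleen over all 14 libraries with genotype as a covariate, was 0.52 for the core and 0.56 for the regulatory particle, against 0.03 for all genes tested. The core median stayed at 0.39 to 0.55 without any single library. The regulatory particle median fell to 0.20 without TIL Flox 3 and to 0.32 without TIL WT 2, and was 0.27 with limma voom and 0.12 as a ratio of group medians. The median log2 CPM of the regulatory particle genes within a library averaged 4.54 in spleen and 4.52 in tumor (n = 7 each), the same within the spread of libraries (SD 0.30 and 0.42). The estimate was above 0 for 26 of the 35 genes, against 50.7% of all genes. At an adjusted p under 0.05, 1 of the 35 genes was higher and 1 lower, together fewer than the 22.5% of 12008 genes that passed (12.3% higher and 10.2% lower). At an unadjusted p under 0.05 there were 8 of the 35, against 35.6% of all genes. By DESeq2 9 of the 35 passed, against 30.6% of all genes. The median over all genes moved with the method, to -0.12 with limma voom and to -0.21 as a ratio of group medians, and on the latter scale the 35 genes had a median of 0.22.

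Psmb2, a structural beta subunit, rose in tumor. It had 15.4, 21.2 and 15.5 CPM in spleen Flox 1 to 3 and 14.9, 18.8, 18.5 and 19.3 CPM in spleen WT 1 to 4. In tumor it had 29.7, 32.8 and 26.6 CPM in TIL Flox 1 to 3 and 38.8, 30.8, 32.0 and 27.6 CPM in TIL WT 1 to 4. Every tumor library was above every spleen library, and within a tissue the values of both genotypes lay together. The log2 fold change was 0.91 (SE 0.25, adjusted p = 0.0187 by edgeR), and it was the only one of the 35 genes without overlap between tissues, against 9.3% of all genes. The call held without any single library (adjusted p 0.0227 to 0.0433 by edgeR). It was lost without the low-count filter (adjusted p = 0.0901 by edgeR) and with replicate number as a block (adjusted p = 0.0714 by edgeR). Over all alternatives the adjusted p ranged from 1.03e-07 with DESeq2 to 0.0901.

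Psmd5, which encodes a chaperone that holds the base ATPases during assembly, fell in tumor. In spleen it ranged from 5.17 to 46.2 CPM with a median of 18.8, and in tumor from 2.60 to 13.2 CPM with a median of 6.01. The tissues overlapped, since 3 spleen libraries were below 10 CPM. The log2 fold change was -1.76 (SE 0.57, adjusted p = 0.0414 by edgeR), and with limma voom it was -1.29 (adjusted p = 0.139). Leaving out spleen Flox 2, the library at 43.3 CPM, gave -1.37 (adjusted p = 0.155), and 9 other single libraries ended the call as well. Those were spleen WT 2, 3 and 4, all 4 TIL WT libraries, TIL Flox 1 and TIL Flox 3.

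The next genes in order of p missed the threshold and had levels that overlapped only in part. Psmd8, a lid subunit, had 8.89 to 29.6 CPM in spleen (median 16.7) and 27.4 to 35.7 CPM in tumor (median 31.8), a log2 fold change of 0.86 (adjusted p = 0.0521 by edgeR). Psmc6, an ATPase, had 7.05 to 12.5 CPM in spleen (median 10.5) and 11.4 to 21.4 CPM in tumor (median 14.6), a log2 fold change of 0.77 (adjusted p = 0.0628 by edgeR). Both passed with DESeq2's own test, with its size factors in edgeR and with a filter of 5 CPM in 3 libraries. Neither passed without the low-count filter (adjusted p = 0.150 for Psmd8 and 0.199 for Psmc6 by edgeR). With replicate number as a block they also missed it (adjusted p = 0.110 and 0.156 by edgeR). Limma voom gave an adjusted p of 0.0256 for Psmd8 and 0.0667 for Psmc6. Psmb7 had 5.42 to 11.4 CPM in spleen and 8.87 to 20.6 CPM in tumor, a log2 fold change of 0.80, and Psma5, an alpha subunit, one of 0.73. Psmb5 had 0.51 (95% limits -0.08 to 1.10), Psmd4 -0.96 (limits -1.95 to 0.03) and Psmd14 -0.19 (limits -1.35 to 0.98). Psmb6 had -1.23 with limits from -4.30 to 1.84, the widest of the 35. Leaving out single libraries gave -2.46 without TIL Flox 1 (adjusted p = 0.0485 by edgeR), which passes, and -0.68 without spleen WT 4, -0.74 without TIL WT 1, -0.76 without TIL WT 3 and -0.72 without TIL WT 4. Without spleen Flox 2 or spleen Flox 3 it was -1.88 or -1.89.

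**Figure D3:**
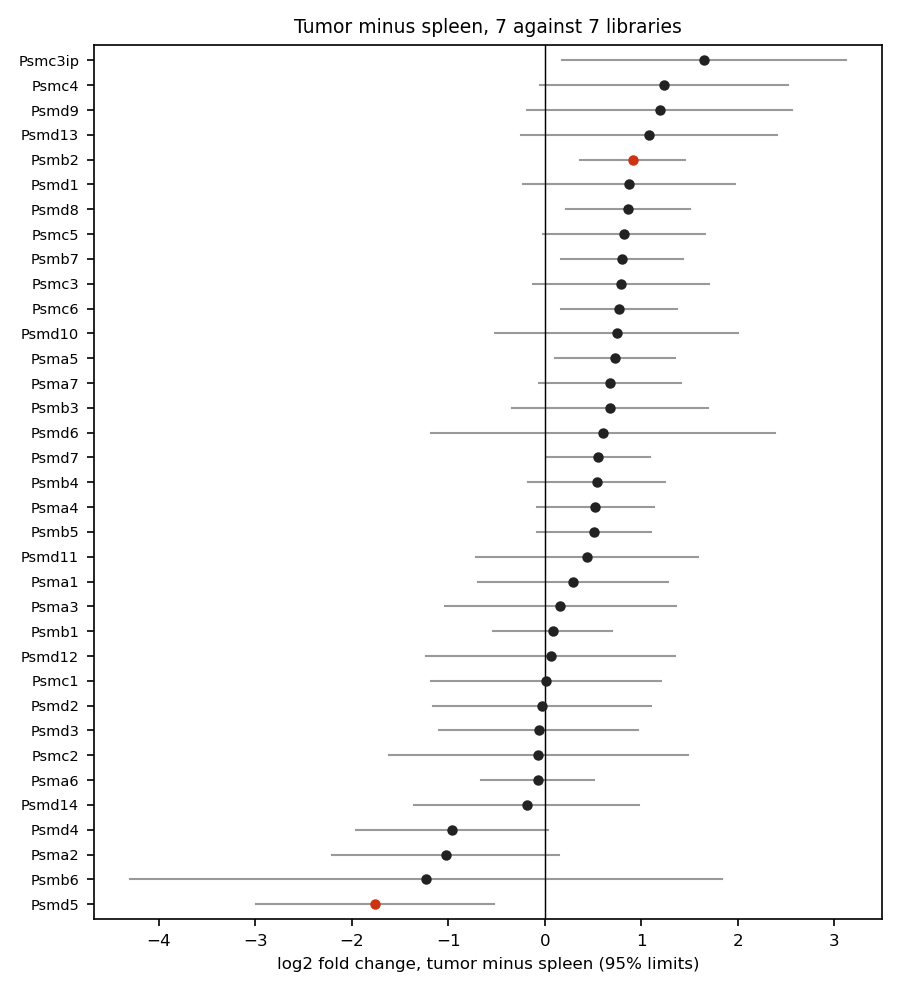
Log2 fold change, tumor minus spleen, of the 35 tested genes from 7 against 7 libraries; points are edgeR estimates, lines their 95% limits, and red marks an adjusted p under 0.05. Psmb2 (0.91) and Psmd5 (-1.76) are red, 26 estimates lie to the right of 0, and Psmb6 has the widest limits.

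The genes were also split by how steady their levels were between libraries, a split made after the values had been seen and given without a test. The 12 genes of lowest coefficient of variation were Psmd7, Psmb2, Psmb5, Psmc6, Psma6, Psma5, Psma4, Psmb7, Psmb1, Psmd8, Psmb4 and Psma7. The last of these had 0.523 and the next gene, Psmc5, had 0.563. Their log2 fold change, tumor minus spleen, was above 0 for 11 of 12, with a median of 0.62, and 0.29 over the other 23 genes. Among all 2380 tested genes with a coefficient of variation no higher than that of Psma7, 61.6% were above 0, with a median of 0.22. The split contains Psmb2, and nothing particular to these genes is read from it. Their summed level was 232 to 282 CPM in the 7 spleen libraries and 297 to 426 CPM in the 7 tumor libraries, without overlap. These genes were chosen for low spread in the tissue fit itself, which favors such a gap. Sums of other low-spread genes were not computed. The summed level of the whole core, not chosen in this way, was 348 to 662 CPM in spleen and 324 to 649 CPM in tumor, overlapping throughout. A sum follows genes with very high single libraries, such as Psmb6. The median log2 CPM of the core genes within a library was 4.08 to 4.63 in spleen and 4.61 to 4.99 in tumor. These ranges overlapped only at their edge (means 4.42 and 4.74, SD 0.18 and 0.14). Between genotypes the 12 genes of lowest spread had a median of -0.04 in tumor and -0.05 in spleen.

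**Figure D4:**
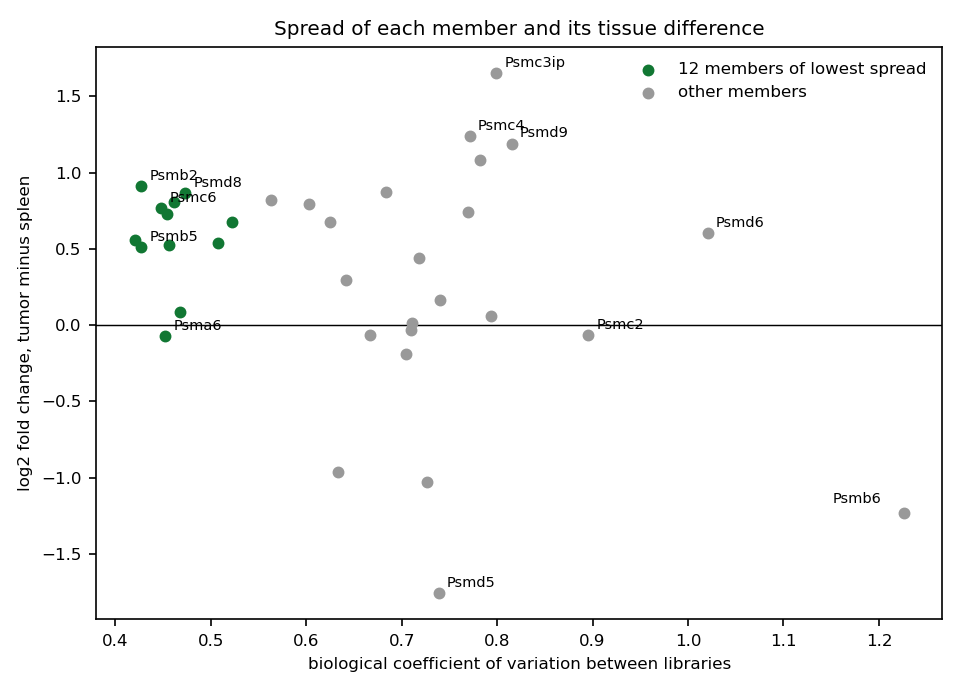
Each point is 1 of the 35 tested genes; the x axis is the biological coefficient of variation between libraries and the y axis the log2 fold change, tumor minus spleen. The 12 genes of lowest spread (green) have a median of 0.62 with Psma6 alone below 0, and the estimates fan out to the right, down to Psmd5 at -1.76.

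Within each genotype no subunit gene passed. Among WT libraries 0 of 34 genes passed (7.1% of 10560 genes), the median log2 fold change was 0.13 for the core and 0.56 for the regulatory particle, and 4 genes had an unadjusted p under 0.05 (26.8% of all genes). Those were Psmd5 (-2.27, adjusted p = 0.0718 by edgeR), Psmb6 (-3.16), Psmb2 (0.94) and Psma4 (0.89), an alpha subunit. DESeq2 called 5 of the 34 (23% of all genes). Among Flox libraries 0 of 34 passed (7.87% of 10760 genes), with medians of 0.63 and 0.21, and 4 genes had an unadjusted p under 0.05 (27% of all genes). Those were Psmb3 (1.88), Psmd4 (-1.63), Psmd8 (1.03) and Psmd14 (-1.20), and DESeq2 called 6 of the 34 (27% of all genes). Psmb2 was 0.89 in Flox libraries, close to its value in WT libraries.

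Other cells and states moved with tissue too, and their part in these results was not tested. The summed level of 6 B cell markers was 237 to 1757 CPM in spleen and 1.52 to 102 CPM in tumor, and 5 of the 6 were lower in tumor by the test. Of 8 proliferation genes all had a positive log2 fold change and 3 passed, with sums of 175 to 685 CPM in spleen and 353 to 2108 CPM in tumor. Of 6 fibroblast and endothelial markers 5 were tested and 4 were higher in tumor, with sums of 56.4 to 169 and 35.4 to 257 CPM. Of 7 macrophage and monocyte markers 6 were tested and 2 were higher, with sums of 6.82 to 248 and 7.37 to 159 CPM. All 6 cell handling genes, such as Fos and Jun, had a positive log2 fold change and 1 passed, with sums of 630 to 1218 and 790 to 1913 CPM. Of 5 epithelial markers only 1 passed the low-count filter and was tested, and it was lower in tumor. The sums over all 5 were 3.85 to 25.0 and 0.366 to 4.33 CPM, and Krt19 was at 0 in every library. In bulk libraries, fewer cells of a type and less RNA per cell cannot be told apart.

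Among 42 other tested genes of the pathway, 3 rose and 2 fell in tumor, together 11.9% against the 22.5% of all genes that passed. Of 5 activator and inhibitor genes 1 was higher in tumor: Psme2, a subunit of the interferon-inducible PA28 cap, had 8.69 to 19.2 CPM in spleen and 16.7 to 31.6 CPM in tumor (log2 fold change 1.06, adjusted p = 0.0181 by edgeR). Of 5 core assembly chaperones 1 was higher: Pomp, which helps beta rings mature, had 10.6 to 19.1 CPM in spleen and 16.4 to 30.1 CPM in tumor (0.85, adjusted p = 0.0335 by edgeR). Of 12 tested ubiquitin and delivery genes 1 was higher, the polyubiquitin gene Ubb (0.92, adjusted p = 0.0305 by edgeR). Of 9 associated proteins 1 was lower, the ubiquitin ligase Ube3c, at 17.0 to 166 CPM in spleen and 9.61 to 28.5 CPM in tumor (-1.76, adjusted p = 0.0208 by edgeR). Of 8 regulators of proteasome gene transcription 1 was lower: Ngly1, the deglycosylase that activates the Nfe2l1 product, had 10.5 to 43.3 CPM in spleen and 6.63 to 10.4 CPM in tumor, without overlap (-1.04, adjusted p = 0.0385 by edgeR). Nfe2l1 itself had a log2 fold change of -0.81 (adjusted p = 0.293). The call of Psme2 was lost without the low-count filter (adjusted p = 0.0714) and held without any single library. The call of Ube3c was lost without spleen WT 4, the library at 166 CPM (adjusted p = 0.0722). Leaving out single libraries ended the call of Pomp in 11 of 14 cases, all but spleen WT 2, TIL WT 1 and TIL WT 3. It ended that of Ngly1 in 9 of 14, all but spleen Flox 1 and 3, spleen WT 3 and 4 and TIL WT 1, and that of Ubb in 7 of 14, spleen Flox 1 and 2, spleen WT 1, 3 and 4, TIL Flox 1 and TIL WT 4. Over all alternatives the adjusted p of Pomp reached 0.137, of Ngly1 0.103 and of Ubb 0.101. No gene of these lists passed between genotypes in either tissue.

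The immunoproteasome genes Psmb8, Psmb9 and Psmb10 encode the interferon-inducible proteolytic subunits that replace the products of Psmb5, Psmb6 and Psmb7. The log2 ratio of counts within a library does not depend on library scaling. It is not corrected for transcript length and serves to compare libraries. Counts of Psmb8 exceeded those of Psmb5 in every library, with a log2 ratio of 2.87 to 4.93. Per kilobase of transcript, the mean level was 48.8 CPM for Psmb8 and 7.36 CPM for Psmb5. The mean was 3.59 ± 0.66 in spleen and 3.53 ± 0.48 in tumor (SD, n = 7 each; exact two-sided permutation p = 0.858). For Psmb9 over Psmb6 the mean was 0.34 ± 1.61 in spleen and 2.13 ± 2.15 in tumor (n = 7 each, exact permutation p = 0.102), and the 3 lowest ratios, -2.36, -1.79 and -1.51, were in TIL Flox 1, spleen WT 4 and spleen WT 1, where Psmb6 was highest. For Psmb10 over Psmb7 the mean was 0.60 ± 0.41 in spleen and 0.23 ± 0.51 in tumor (n = 7 each, exact permutation p = 0.166). Between genotypes in tumor this ratio was 0.60 ± 0.26 in Flox (n = 3) and -0.05 ± 0.49 in WT (n = 4), an exact permutation p of 0.114. None of the 9 comparisons passed after Benjamini-Hochberg adjustment (smallest adjusted p = 0.45 by exact permutation), and 3 against 4 libraries cannot give a p below 0.0286 in the exact test.

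**Figure D5:**
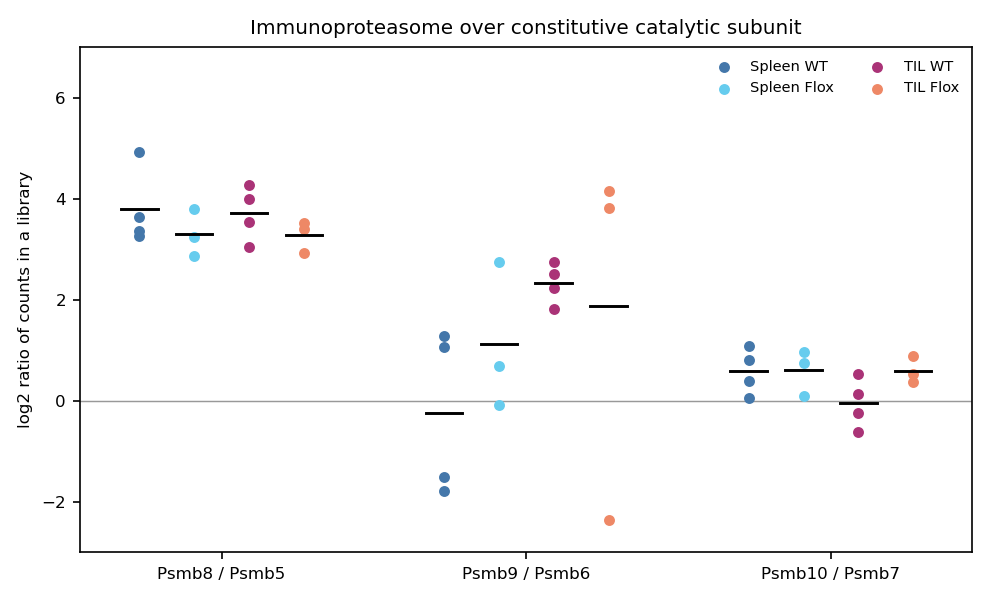
Log2 ratio of counts of each immunoproteasome gene to the constitutive gene it replaces, in each of the 14 libraries; points are libraries, colored by group, and bars are group means. Psmb8 over Psmb5 stays between 2.87 and 4.93, whereas Psmb9 over Psmb6 drops to -2.36 in TIL Flox 1.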

How the data were processed

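Gene counts of 14 libraries were used as deposited by the authors: whole-number counts per NCBI Gene number on mouse build mm10, per the submitters' processing notes. The aligner, the counter, its strand setting and the handling of reads shared with pseudogene copies are stated nowhere in the labels, and 6 of the 37 genes overlap another counted gene, such as Psmd10 and Atg4a. Numbers were matched to RefSeq symbols for 25275 genes, and the remaining 1904 held 1.25% to 1.95% of counts. The members, the gene lists and the tests were chosen with earlier results of these data known.

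Each contrast was fitted over all genes with edgeR 4.0.16 in R 4.3.3 (TMM, filterByExpr, quasi-likelihood F test, Benjamini-Hochberg, threshold 0.05). The genotype contrasts and the pooled tissue contrast were also run on simulated counts. Of 50 genes changed 16-fold there, the tumor genotype test called 0%, the spleen genotype test 44% and the tissue test 76%. At 4-fold the tissue test called 20% and at 2-fold 2%, and both genotype tests called 0% at these sizes. Nearly all genes were left unchanged in the simulated counts, whereas 22.5% passed between tissues in the data. The adjusted threshold therefore differs, and these shares do not give the recovery of the real tissue test. Psma8 and Psmb11 failed the filter everywhere, and Psmc3ip in spleen and within each genotype. Alternatives were DESeq2 1.42.0, its size factors, limma 3.58.1 (voom with quality weights), other filters, a replicate block, 1 fit of all libraries and each library left out. CPM used TMM factors over all libraries, and lengths came from GENCODE principal transcripts. The rule for names took the proteolytic genes, Psmd4, Psmd14, the 4 smallest p-values of each contrast, the extremes of CPM per kilobase of each sub-complex, untested genes and genes with a library apart. Of related lists it took the immunoproteasome genes and the 2 smallest p-values of each list, which are described here only for the pooled tissue contrast. Psmd6, Psmc3, Psma2 and other genes named for spread or a high library were named after their values were seen. Paaf1 was not analysed here. No 2 libraries of a group agreed within sampling noise.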

Additional observations from a re-analysis of the deposited data

Results flagged for a closer look

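In 11 of 70 groups of 4 libraries (15.7%) the highest or lowest library stood apart from the other 3 by Dixon's criterion. For normally distributed values the criterion flags about 1 in 20. The share over all genes was not computed, so the count is not read as a trait of these genes. Most of the flagged groups were in TIL WT. In TIL WT 4, Psmc4 had 131 CPM (others 8.96 to 16.3), Psmd12, a lid subunit, 69.3 CPM (others 9.66 to 14.2), Psmc5, an ATPase, 33.1 CPM (others 10.5 to 13.4) and Psmc6 21.4 CPM (others 13.8 to 14.6), while Psmb1, a structural beta subunit, was lowest at 41.8 CPM (others 53.6 to 55.1). In TIL WT 1, Psmd1 had 146 CPM (others 17.6 to 35.6) and Psmb4 66.9 CPM (others 38.7 to 42.9). In TIL WT 3, Psmd10 had 36.3 CPM (others 2.01 to 7.03). In spleen WT, Psmd3, a lid subunit, had 65.2 CPM in replicate 1 (others 11.1 to 17.2), Psmd4 63.0 CPM in replicate 4 (others 13.3 to 20.5) and Psmc4 19.5 CPM in replicate 2 (others 12.1 to 12.7). Groups of 3 could not be checked in this way. What set these libraries apart was not tested.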

How the results depend on the processing

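Whether replicate numbers pair the libraries is unresolved. Correlations of deviations between same-numbered libraries ran from -0.03 to 0.05, and the own number was the best match in 5 of 13 pairs. Both WT 2 libraries held Xist and Ddx3y together. A replicate block left 0 subunit genes passing between tissues (Psmb2 adjusted p = 0.0714), 173 genes within WT and 1 within Flox libraries, a regulatory particle median of 0.20 between tissues and a core median of 0.12 for the difference between tissues of the genotype contrast. In spleen it turned Psmb7 to 0.057 and Psmg3 to -0.022. For the subunit genes passing between tissues, size factors of DESeq2 gave 4, DESeq2 itself 9, no low-count filter 1 and a filter of 5 CPM in 3 libraries 4, against 2. DESeq2 called 5 of them within WT and 6 within Flox libraries, and of all genes 266 in tumor and 124 in spleen between genotypes, 157 for the difference between tissues, 2430 within WT and 2910 within Flox libraries. Limma voom called 1 gene between genotypes in tumor, the 5 CPM filter 1 in spleen, and 1 fit of all 14 libraries 4 in spleen and 1514 within WT, while no filter left 457 within Flox libraries. Added after seeing the data, leaving out both WT 2 libraries left 329 genes within WT and a core median of 0.062 for the difference between tissues (0.12 with voom), and the ratio of group medians gave a regulatory particle median of 0.12. Spleen genotype estimates near 0 turned sign: Psmb7 to 0.086 with voom and 0.013 without the filter, Psmb9 to -0.048 and Psmb10 to 0.070 with voom. The cause of these changes was not tested.

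Leaving out each library in turn gave 1 to 3 subunit genes passing between tissues and 0 to 1 within WT libraries. Over all genes it gave 0 to 1 in spleen between genotypes, 0 to 1 for the difference between tissues, 373 to 658 within WT and 0 to 472 within Flox libraries. The core median ranged from -0.18 to 0.17 in tumor, -0.24 to 0.0092 in spleen and 0.078 to 0.45 for the difference, and the regulatory particle median in tumor from -0.48 to 0.020. Genotype estimates that changed sign ranged, in tumor, from -0.023 to 3.59 for Psmb6, -0.28 to 2.50 for Psmc3ip, -1.14 to 3.48 for Psme3 and -0.46 to 2.17 for Psmg2. In spleen they ranged from -0.35 to 0.13 for Psmb7, -0.016 to 1.48 for Psmd4, -0.20 to 0.65 for Psmb9, -0.31 to 0.15 for Psmb10, -1.75 to 0.88 for Psmf1, -1.34 to 0.11 for Psme4, -0.027 to 0.44 for Psmg3, -0.44 to 1.34 for Nfe2l1 and -0.49 to 1.18 for Sel1l. Between tissues Psmd14 ranged from -0.60 to 0.088, the log2 ratio of Psmb8 to Psmb5 from -0.18 to 0.16 and that of Psmb9 to Psmb6 from 1.43 to 2.54. Between genotypes, Psmb9 to Psmb6 ranged from -1.60 to 1.65 in tumor and Psmb10 to Psmb7 from -0.17 to 0.27 in spleen. With 3 or 4 libraries a group, counts as low as 0 say nothing about stability.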
